A study of Gallus gallus with 144 samples.

Results

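The region described here is the stretch of chicken chromosome 4 from UTP3 to EPHA5 that holds GC, the gene of the vitamin D binding protein, and ALB, the gene of serum albumin. Its members were chosen by their position and by the authors' promoter labels, as every peak on either strand from the UTP3 promoter peak to the EPHA5 promoter peak. That gave 269 of the 153662 peaks in the deposited list. The region had been proposed with its dense peaks already known, so counts and densities in it are descriptions and carry no test.

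The study mapped transcription start sites in 24 chickens by CAGE, a method that captures capped RNA and reads its 5′ ends. Brain, breast, heart, kidney, leg and liver were each sampled from 12 fast-growing and 12 slow-growing birds, which makes 12 groups of 12. The labels give tissue, growth type and bird, and nothing else that separates the groups. The values analysed here came from 1 peak list in GRCg6a coordinates that pools all libraries and keeps none of their separate values. Peak height, depth and the tissue or growth type behind a peak were therefore not measured, and there were no replicates to test.

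Albumin is the most abundant protein of blood plasma, made by hepatocytes, and keeps water in the blood while carrying fatty acids and other ligands. The vitamin D binding protein, also made in liver, carries vitamin D and its metabolites and binds actin released from damaged cells. Both belong to 1 gene family with alpha-fetoprotein, AFP, a plasma protein of the embryo and fetus, and in vertebrates the family's genes lie near each other. In CAGE data a promoter gives a compact peak or a cluster of neighbouring peaks at the start of a gene, and very active genes are also known to give capped-end signal inside the gene body.

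The region ran from 50022575 to 51252075, 1229501 bp, on chromosome 4. Plus-strand peaks numbered 184 and minus-strand peaks 85. The plus strand thus had 68.4% of them (95% Wilson interval 62.6 to 73.7), against 50.1% over the whole list. Peaks had a median width of 9 bp, against 7 bp in the whole list. A width of 1 bp was found for 50 of the 269 (18.6%, interval 14.4 to 23.7), against 23.7% of all peaks. Widths of 1 bp were spread unevenly between the strands, at 24 of 184 plus-strand peaks (interval 8.92 to 18.7%) and 26 of 85 minus-strand peaks (interval 21.8 to 41.0%). In the whole list the strands had 23.8% and 23.6%. The ALB stretch described below, where 1 of 73 plus-strand peaks was 1 bp wide, adds to the contrast between the region's strands. Without the stretch the contrast was smaller, and the minus strand still had the higher share. It was not tested. These intervals cover counting error over peaks only, and peaks of 1 gene are not independent.

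**Figure D1:**
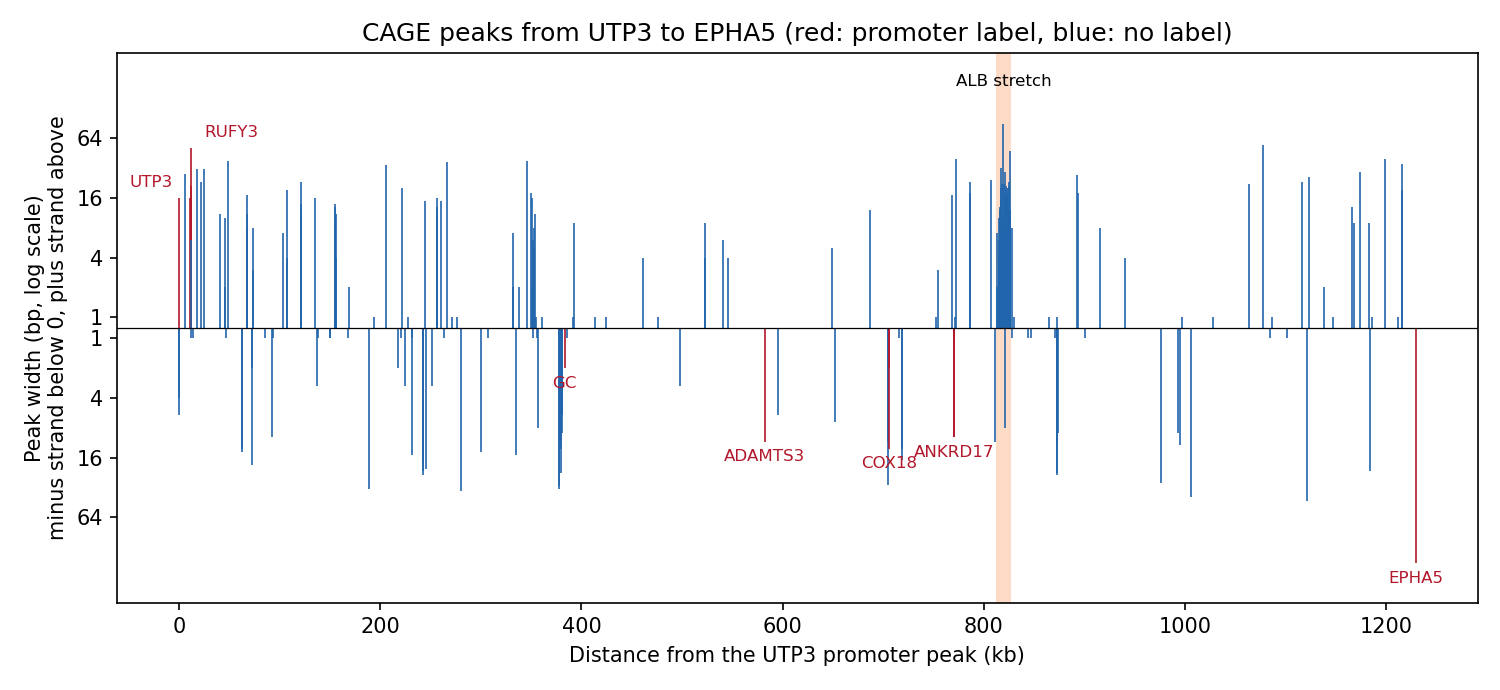
Peaks of the region by distance from the UTP3 promoter peak in kb (x axis) and by width in bp on a log scale (y axis), with the plus strand above 0 and the minus strand below. Red lines carry the authors' promoter label, blue lines carry none, and the shaded band marks the ALB stretch, 13077 bp long, where 73 of the 184 plus-strand peaks lie and none is labelled.

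Promoter labels were few. Only 14 of the 269 peaks had one (5.2%, interval 3.13 to 8.55), against 16.2% of all peaks. They named 7 genes: UTP3, a ribosome biogenesis factor, RUFY3, a protein of axons and vesicle traffic, GC, ADAMTS3, a protease that cleaves procollagen and the lymphatic growth factor VEGFC, COX18, an assembly factor of cytochrome c oxidase in mitochondria, ANKRD17, an ankyrin repeat protein, and EPHA5, an ephrin receptor of neurons. UTP3 and RUFY3 were labelled on the plus strand and the other 5 on the minus strand.

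The labelled promoters differed in their shape. RUFY3 had 5 promoter peaks, between 50033823 and 50034085, with widths of 16, 21, 11, 16 and 51 bp in order along the plus strand. ANKRD17 had 3 peaks of 10, 10 and 1 bp between 50793006 and 50793036. COX18 had 2, of 13 bp (50728112 to 50728124) and 2 bp (50728127 to 50728128). UTP3 (50022560 to 50022575), GC, ADAMTS3 (50604590 to 50604600) and EPHA5 each had 1 peak.

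The widest peak of the region was the promoter of EPHA5, 186 bp from 51251928 to 51252113, wider than 99.5% of all promoter peaks of the list. The 51 bp peak of RUFY3 was wider than 97.7% of them. The promoter peak of GC lay at the other end of the scale. It was 2 bp wide, from 50405942 to 50405943, and 10.1% of all promoter peaks were that narrow or narrower. The UTP3 peak, at 16 bp, was wider than 74.9%, and that of ADAMTS3, at 11 bp, wider than 55.8%.

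ALB had no promoter label, nor had any neighbour of its family other than GC. The RefSeq table of the GRCg7b assembly, used for gene order only, listed 23 genes from UTP3 to EPHA5, 18 of them protein-coding. RUFY3 starts before UTP3 in that table and is not among them. Of these 18, 12 appeared in the list under no symbol and no older symbol. They were GRSF1, MOB1B, DCK and SLC4A4 between UTP3 and GC, LOC100858497 and NPFFR2 between GC and ADAMTS3, and ALB, AFP, RASSF6, IL8L1, IL8L2 and LOC422654 between ANKRD17 and EPHA5. GRSF1 binds RNA in mitochondria, MOB1B acts in Hippo signalling, DCK is a kinase of deoxynucleosides, and SLC4A4 is a sodium bicarbonate transporter of kidney and other epithelia. NPFFR2 is a neuropeptide receptor, RASSF6 a Ras association domain protein, and IL8L1 and IL8L2 are chemokines. Unlabelled peaks were found in every interval where these genes lie. Whether any of these genes lacks peaks is not known, since no gene positions of GRCg6a were used.

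Between ANKRD17 and EPHA5 the list had 124 peaks and no label over 459038 bp. Of these, 104 were plus-strand and 20 minus-strand peaks. Most of the plus-strand peaks stood in a single dense stretch, from 50835663 to 50848739. It began 42.6 kb past the last ANKRD17 promoter peak and ended 403.3 kb before that of EPHA5. The gene order of GRCg7b places a long noncoding RNA gene, ALB, AFP and then RASSF6 on this side of ANKRD17. The stretch is called the ALB stretch here for that order. No file used here assigns it to ALB, and no annotation of GRCg6a was used.

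The ALB stretch held 73 plus-strand peaks and 1 minus-strand peak in 13077 bp, or 5.66 peaks per kb. This was 27.5% of the region's peaks in 1.06% of its length. None had a label. Linked over gaps of at most 1000 bp, its longest runs held 25 peaks (50837466 to 50840370) and 39 peaks (50842828 to 50847317), and 9 of the 102895 runs in the whole list held more than 39 peaks. Linked over gaps of at most 2000 bp, the 73 peaks formed 1 run, and 7 of 94790 runs held more. The longest of the region's runs outside it held 8 peaks at 1000 bp, downstream of GC, and 10 peaks at 2000 bp, on the plus strand from 50372820 to 50377054.

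On a fixed grid of 20 kb windows, the window from 50840001 to 50860000 held 56 peaks, 54 of them on the plus strand. It stood at percentile 99.977 of the 52947 windows in the list, of which 12 held as many peaks or more. The window before it, from 50820001 to 50840000, held 23 peaks, at percentile 99.566. The region's other windows held 16 peaks at most. Over its 62 windows the median was 2 peaks, as over the whole list, and 8 windows were empty. The mean was 4.39 peaks per window in the region and 2.9 in the list. The region's last window reaches past EPHA5, and its 3 plus-strand peaks lie outside the region but are counted here.

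**Figure D2:**
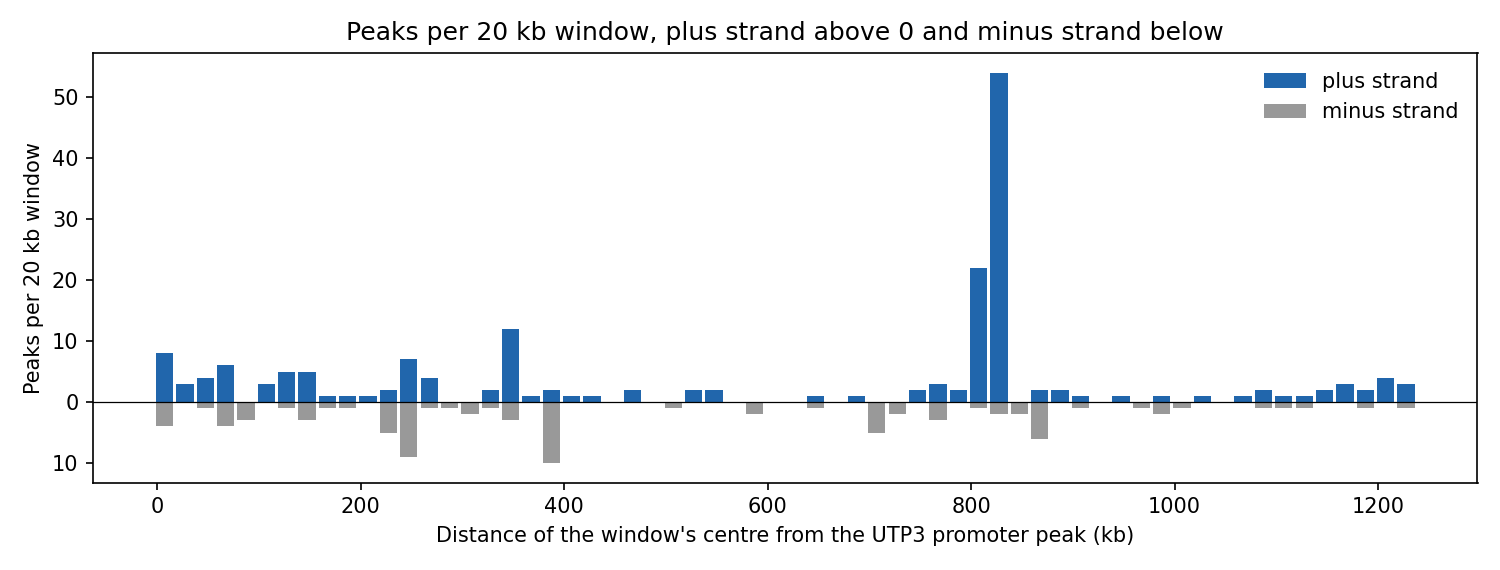
Peaks per 20 kb window (y axis) by distance of the window's centre from the UTP3 promoter peak in kb (x axis), with plus-strand peaks drawn above 0 and minus-strand peaks below. The 2 tallest bars, with 22 and 54 plus-strand peaks, are the windows that cover the ALB stretch. The last window reaches past EPHA5, and its 3 plus-strand peaks lie outside the region.

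The edges of the ALB stretch are those of the run linked over 2000 bp. The plus-strand gap past each edge therefore exceeds 2000 bp by definition. In the 20 kb before it there was 1 plus-strand peak and 1 minus-strand peak. The plus-strand peak, 24 bp wide (50829558 to 50829581), ended 6081 bp before the stretch began. In the 20 kb after the stretch there were 2 peaks on each strand. The next plus-strand peak was 8 bp wide (50850961 to 50850968) and began 2221 bp past the end of the stretch. A somewhat larger link limit would have added that peak, so the position of this edge depends on the limit. No run of 20 or more peaks followed the stretch before EPHA5. AFP follows ALB in the gene order, but the stretch is assigned to no gene, so this says nothing of AFP.

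Within the stretch the peaks gathered in small groups with empty sequence between them. Peaks linked over gaps of at most 300 bp formed 13 groups, 12 of them with 2 to 9 peaks and 1 with a single peak. Inside a group, neighbouring peaks were separated by a median of 13.5 bp (range 1 to 206). From the start of a group to the start of the next, the distance had a median of 985 bp (range 765 to 1803). The 12 groups with several peaks were 47 to 381 bp long, with a median of 145 bp. The peaks covered 846 bp, or 6.47% of the stretch. The gap limit for groups was set after the peaks had been seen.

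In order along the plus strand, the first group (50835663 to 50835854) had 2 peaks, of 7 and 2 bp, and was followed by the longest step, 1803 bp. The second group (50837466 to 50837512) had 4 peaks and the third (50838283 to 50838403) had 7. The fourth (50839334 to 50839531) had 8, among them the stretch's only 1 bp peak, and the fifth (50840255 to 50840370) had 6. These early groups were between 47 and 198 bp long.

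The sixth place was taken by a single peak of 88 bp (50841452 to 50841539). It was the second widest of the region after the EPHA5 promoter. After it came a group of 5 peaks (50842828 to 50842932), a group of 9 (50843837 to 50844136), a group of 8 (50844602 to 50844717) and a further group of 9 (50845563 to 50845928). The last 3 groups had 4 peaks (50846405 to 50846573), 4 peaks (50847209 to 50847317) and 6 peaks (50848359 to 50848739). The final group was the longest, at 381 bp, and closed with a 47 bp peak, the fifth widest of the region.

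The third group is given as an example of the make-up of a group. Its 7 peaks measured 5, 2, 12, 13, 11, 7 and 10 bp in order, within 121 bp. The first of them had its representative position, the base that the list gives for each peak, on its first base. So had the 2 bp peak that follows it (50838304 to 50838305).

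That feature recurred across the stretch. In 11 of its 12 groups with several peaks, the first peak had its representative position on its first base (91.7%, interval 64.6 to 98.5). The exception was the group from 50846405, where the position lay 13 bp into a first peak of 20 bp. Among later peaks of these groups that were over 1 bp wide, 4 of 59 had it there (6.78%, interval 2.67 to 16.2). In unlabelled groups of 2 or more peaks over the whole list, only peaks over 1 bp wide were counted. Their shares were 30.7% for first peaks and 8.6% for later ones. Of the stretch's 11 groups with 3 or more peaks, 10 had the feature, against 35.1% of such unlabelled groups in the list. This pattern was noticed in these peaks and then counted in them, so it is a description and was not tested.

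**Figure D3:**
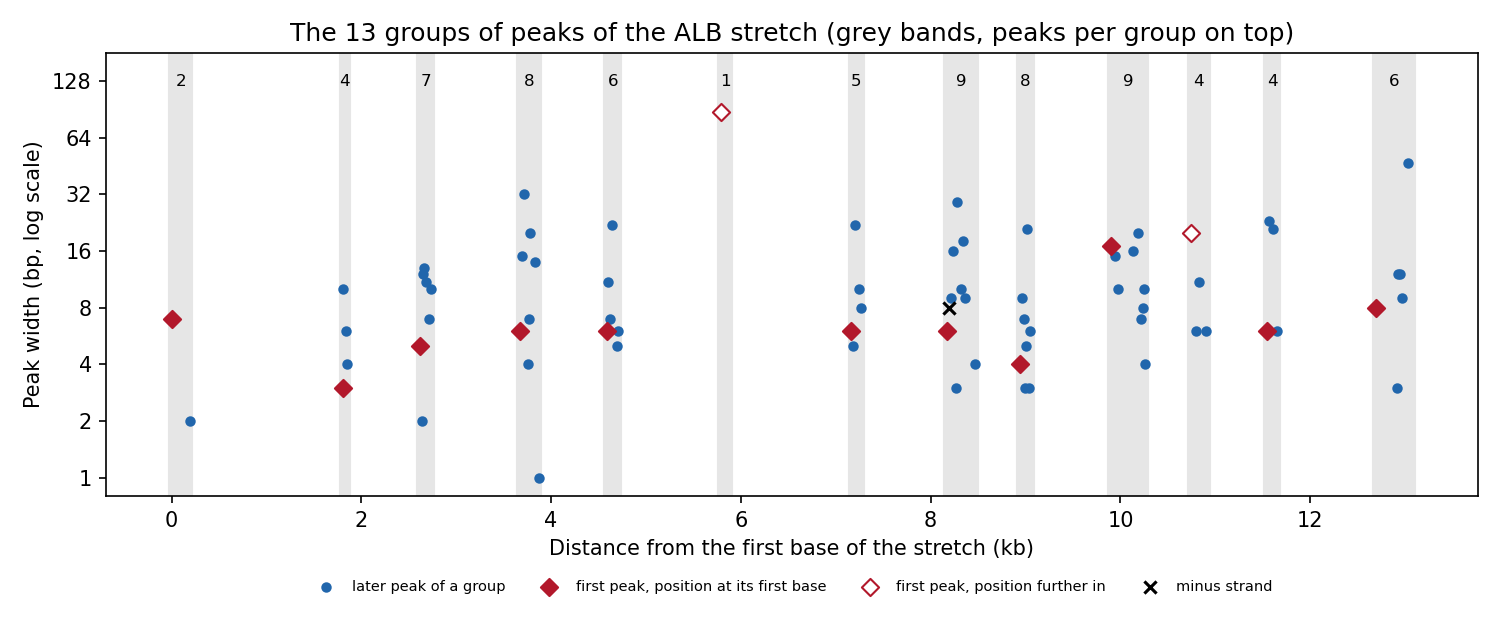
Peaks of the ALB stretch by distance from its first base in kb (x axis) and width in bp on a log scale (y axis). Grey bands are the 13 groups with their number of plus-strand peaks, filled red diamonds are first peaks with the representative position on their first base (11 groups), open diamonds are the 2 groups where it lay further in, and the cross is the only minus-strand peak.

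Other long runs of the list shared the feature to different degrees. The list had 102 runs of 20 or more peaks at a gap limit of 2000 bp, of which 56 had no label. In the 47 with at least 5 groups of several peaks, the share of groups with the feature ranged from 0 to 100%, with a median of 50%. In these shares a first peak of 1 bp counted as having the feature. The ALB stretch, at 91.7%, was exceeded by 1 of them. Runs with fewer groups were left out of this rank, and some of them reached 100%. Close below it stood a run of 110 peaks, at 90.0%, and a run of 44 peaks, at 88.9%. Other measures were set beside all 102 runs. Peaks of the ALB stretch had a median width of 8 bp against a median of 11 bp over runs. A width of 1 bp was found for 1.37% of them against a median of 2.74%, and 45 other runs were at or below 1.37%. The median step between groups was 985 bp against 947 bp. The stretch had 1 peak on the opposite strand against a median of 2.

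**Figure D4:**
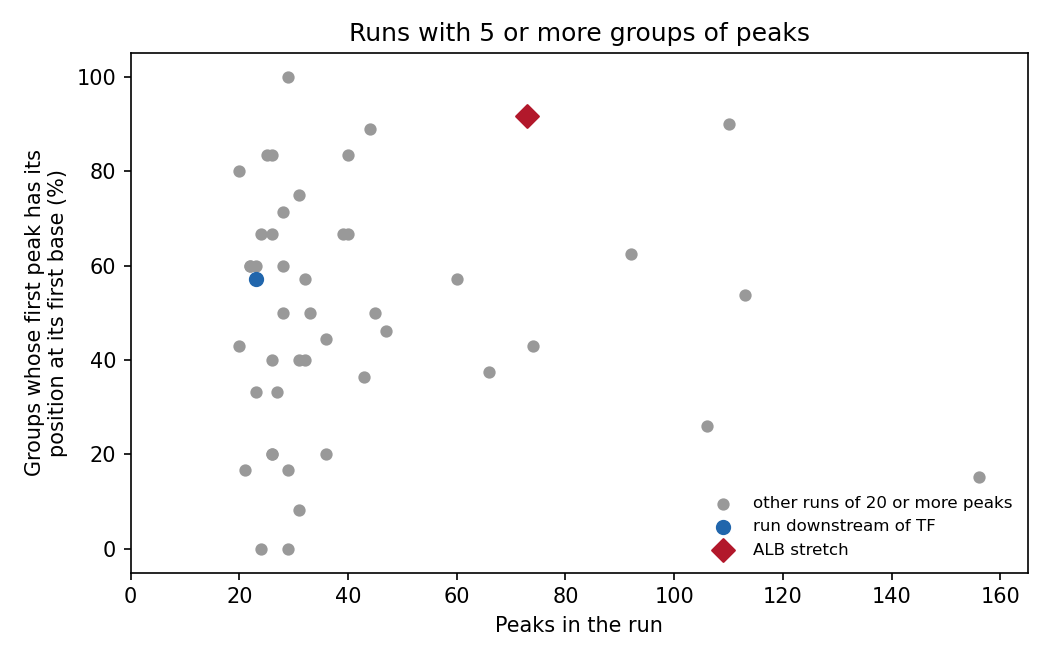
Share of groups whose first peak has its representative position on its first base (y axis, %) by the number of peaks in the run (x axis), for the 47 runs of 20 or more peaks with at least 5 groups. Each point is 1 run, and the ALB stretch (red diamond, 73 peaks, 91.7%) has a higher share than every run but 1.

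The stretch's minus-strand peak was 8 bp wide (50843854 to 50843861) and lay inside the group of 9 that begins at 50843837. It took part in the only divergent pair counted in the region, with members 30 bp apart. In a divergent pair the minus-strand member comes before the plus-strand member and both lie within 400 bp of each other. No other peak position lay between the members of any pair counted in the region. Further plus-strand positions of the same group, up to 50844135, also lay within 400 bp of this peak but were not counted. The same peak also counted in a convergent pair, with the plus-strand member first, at 17 bp from the position at 50843837. The single divergent pair is 3.72 divergent pairs per 1000 peaks, against 24.6 in the whole list. Convergent pairs counted in the region numbered 5, the one at 17 bp included, or 18.6 per 1000 peaks against 18.3 in the list. The UTP3 position had a further minus-strand position, 50022895, within 400 bp, which was not counted. None of the 7 labelled genes had a divergent partner within that distance.

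Outside the ALB stretch the strand share and the share of 1 bp peaks lay closer to those of the list, while the median width was the same as with it. The other 195 peaks were split between 111 plus-strand (56.9%, interval 49.9 to 63.7) and 84 minus-strand peaks. A width of 1 bp was found for 49 of them (25.1%, interval 19.6 to 31.7). In the stretch itself it was found for 1 of 73 plus-strand peaks, while 27.2% of all unlabelled peaks had that width. The 195 peaks outside had a median width of 9 bp, against 7 bp in the list. A promoter label was found for 7.18% of the 195, against 16.2% of all peaks.

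A smaller run lay downstream of GC, on the minus strand, and no file used here assigns it to GC. From 500 to 20000 bp downstream of the GC promoter peak there were 8 unlabelled peaks on the minus strand and none on the plus strand. Linked over gaps of at most 1000 bp, these 8 formed 1 run, and 628 of the 102895 runs in the list held more peaks. A count of 8 or more on the own strand was found for 6.12% of the 10430 genes with promoters on 1 sequence and strand. Those genes averaged 2.43 peaks on the own strand and 1.88 on the opposite strand, with medians of 1.

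The 8 peaks downstream of GC lay within 3414 bp, from 50403723 down to 50400310. The nearest to the promoter were 2 peaks of 6 bp with their positions 2219 and 2458 bp from it, and a 9 bp peak followed at 2518 bp. Peaks of 13, 23 and 11 bp stood alone at 3391, 4017 and 4638 bp. The farthest, of 33 and 31 bp, lay at 5542 and 5602 bp. None was 1 bp wide, and the median width was 12 bp, against 2 bp for the promoter peak itself.

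Past these peaks the minus strand was empty for 20898 bp. Further out, from 20 to 50 kb downstream of GC, the plus strand held 13 peaks between 50360776 and 50383191, and the minus strand 4. Of these plus-strand peaks 10 formed the run from 50372820 to 50377054. SLC4A4 is the protein-coding neighbour of GC on this side in the gene order, and the list gives these peaks to no gene. In the 20 kb upstream of GC there were 2 plus-strand peaks and 1 minus-strand peak.

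The other genes of the region had fewer peaks downstream than GC. RUFY3 had 4 in its own direction, more than 79.4% of all genes, and 2 on the other strand. UTP3 had 3 in its own direction and 2 on the other strand, where 30.1% of all genes had 3 or more on the own strand. Their windows overlap and share 2 peaks on each strand. ADAMTS3 had none on either strand. ANKRD17 and EPHA5 had none on the own strand and 3 on the other, and COX18 none and 1. The ALB stretch lies on the other side of the ANKRD17 promoter, upstream of it, and entered none of these counts.

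Among plasma protein genes elsewhere in the genome, GC lay in the middle. Of 20 such genes, 12 had a promoter label with all peaks on 1 strand, and their downstream counts on the own strand ranged from 1 to 52 with a median of 10. The fibrinogen genes FGG and FGA had 52 and 37, in windows that overlap. FETUB and AHSG, neighbouring fetuin genes, had 25 and 19, also in windows that overlap, and TF, an iron carrier, had 21. F2, prothrombin, had 11 and KNG1, kininogen, 9. Below GC stood SERPINC1, antithrombin, with 5, ITIH2 with 4, AMBP with 3, CP, ceruloplasmin, with 2, and APOB, the apolipoprotein of very low density lipoprotein, with 1. On the opposite strand the 12 genes had a median of 1 peak. FGA differed from the others there, with 34 opposite-strand peaks beside its 37, and no other of the 12 had more than 3. These windows are not bounded by the end of the gene, and the source of the peaks was not tested. FGB, TTR, APOA1, HPX, VTN, PLG, C3 and RBP4 had no label under these symbols, as was the case for ALB under its own.

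**Figure D5:**
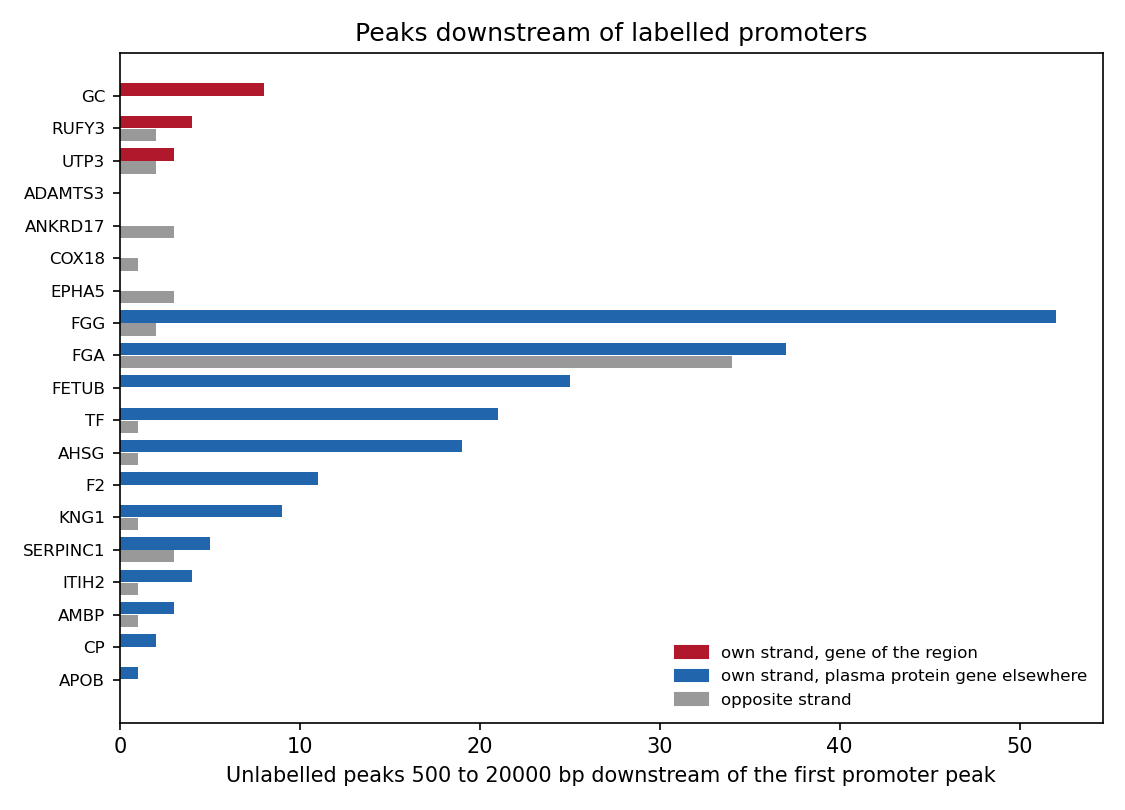
Unlabelled peaks from 500 to 20000 bp downstream of the first promoter peak (x axis) for the 7 labelled genes of the region (red) and 12 labelled plasma protein genes elsewhere (blue), with the opposite strand in grey. GC, with 8 and 0, has the most own-strand peaks among the labelled genes of the region, and 7 of the 12 plasma protein genes have at least as many.

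The density of peaks changed along the region. The 371883 bp from RUFY3 to GC held 104 peaks, 28.0 per 100 kb, 58 of them plus and 46 minus. Beyond GC the density fell to 6.04 per 100 kb up to ADAMTS3 (12 peaks, 10 of them on the plus strand) and 4.86 per 100 kb from there to COX18 (6 peaks). The longest distance between neighbouring representative positions of the region, 54338 bp, lay in that last interval, from 50617754 to 50672092. From COX18 to ANKRD17 there were 6 peaks, 9.25 per 100 kb. From ANKRD17 to EPHA5 there were 27.0 per 100 kb with the ALB stretch included. The stretch held 74 of the 124 peaks of that interval.

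Compact groups of peaks without a label also lay outside the ALB stretch. There were 7 groups of 4 or more peaks linked over at most 300 bp, of which 2 had a label, those of RUFY3 and COX18. In the whole list 52.0% of such groups had one. The 5 without a label were a group of 4 on the plus strand (50089892 to 50089975), 5 on the plus strand (50177983 to 50178084), 6 on the minus strand (50265182 to 50265384), 6 on the plus strand (50278582 to 50279047) and 5 on the minus strand (50895826 to 50895989). They were between 84 and 466 bp long. The first 4 lay between RUFY3 and GC, where GRSF1, MOB1B, DCK and SLC4A4 stand in the gene order, and the fifth lay between ANKRD17 and EPHA5. No file used here gives them to a gene. In none of these 5 groups did the first peak have its representative position on its first base, the positions lying 2 to 11 bp in.

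Wide single peaks without a label were spread over the rest of the interval before EPHA5. The third widest peak of the region was one of 54 bp on the plus strand (51100013 to 51100066), and the sixth widest one of 44 bp on the minus strand (51143529 to 51143572). Widths over 30 bp were not more common in the region than in the list. They were found for 21 of its 269 peaks (7.81%, interval 5.16 to 11.6), against 8.33% of all peaks. Peaks also lay close outside both limits. In the 20 kb before UTP3 there were 10, of which 9 were on the minus strand, with a largest group of 4 (50013539 to 50013656). The 50 kb window across that limit, from 50000001 to 50050000, held 25 peaks, at percentile 97.339 of such windows. In the 20 kb after EPHA5 there were 3 peaks on each strand, and no group of more than 2. The nearest peak outside it on the UTP3 side was a 25 bp promoter peak of JCHAIN, the joining chain of antibodies, 4429 bp away, and on the EPHA5 side an unlabelled 24 bp peak 3441 bp away. The nearest members inside lay 242 bp from the UTP3 position (4 bp wide) and 13830 bp from that of EPHA5 (35 bp wide).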

How the data were processed

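Per the labels' protocols, the authors made nAnT-iCAGE libraries carrying molecular identifiers. GRCg6a, UMI-tools 1.1.4 and STAR 2.7.9a stand in the submitters' processing notes. Peak calling settings, the rule for promoter labels and their annotation were not given in the sources used here. In every row, the score column of the authors' deposited list held 1, so peaks could not be ranked. Starts were counted from 0 there and are printed 1-based. Peak positions are the start plus the list's offset, taken as the representative position.

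Members, lists and measures were chosen with earlier results of these data known. Since the list has no value per library, depth is unknown and the planned comparisons of growth types and tissues were not run. Planned motif searches were not run either, since no sequence was used. The sequence holding ANKRD17 was taken as chromosome 4, where 598 of its 599 matched labelled genes lie in the RefSeq table of GRCg7b. Peaks were linked by strand into runs (gaps up to 1000 or 2000 bp) and groups (up to 300 bp). Windows of 20 kb ran on a fixed grid, from the window of each sequence's first peak to that of its last. Named genes were all labelled genes of the region, all unlabelled ones in the gene order, and 20 plasma protein genes. Named peaks were the labelled ones, the 5 widest and the ends of runs of 20 or more. Others, such as the groups and the peaks near GC, were chosen after their values were seen. The run and downstream counters were tested on simulated data, with the run and its promoter planted on the plus strand only. The count of first-base positions was not tested in this way. Python 3.11.15, numpy 2.4.6, pandas 2.3.3, scipy 1.17.1 and matplotlib 3.10.9 were used.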

Additional observations from a re-analysis of the deposited data

How the results depend on the processing

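Of 42 alternatives tried over 16 results, 30 left the value within 1.5 times the reported count or within the interval of the reported share, and 12 moved it. Without the ALB stretch, an alternative added after seeing the data, the plus-strand share was 56.9% and the share of 1 bp peaks 25.1%. With same-strand peaks within 20 bp merged, the densest window held 28 peaks, 48 windows of the list held as many, and 61 plus-strand peaks remained between ANKRD17 and EPHA5. With peaks over 1 bp only, 13 minus-strand peaks lay there. In 10 kb windows, 6 windows of the list were as dense as the region's densest. With the window downstream of GC drawn to 50000 bp, its opposite strand held 13 peaks. With runs linked over 500 bp, the region had 0 runs of 20 or more peaks and its longest held 17, and with 2000 bp it had 1, of 73 peaks. The boundary alternative changed nothing, since UTP3 and EPHA5 had 1 promoter peak each. Group limits of 200 and 400 bp, also added later, gave 10 and 11 of 12 groups with the first peak's position on its first base. No paired analysis was possible because the list has no value per library. Depth and peak height, which the list does not give, limit every count here.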
